A study of Homo sapiens with 8 samples.

Results

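The nuclear-encoded respiratory chain genes are the genes of the cell nucleus for the protein subunits of complexes I to IV of the mitochondrial electron transport chain and of complex V, the ATP synthase. They were found by gene symbol alone, and 76 of the 61228 symbols in the count table were members. Earlier results of these data were known when this set of genes was chosen. Complex I held 37 of them, complex II 4, complex III 9, complex IV 11 and complex V 15. NDUFA4, whose symbol is that of a complex I gene, was counted with complex IV, to which its protein is now assigned.

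RNA sequencing was done on total RNA of 8 untreated clones of RPMI-8402, an established human line from a T-cell leukaemia of the acute lymphoblastic kind. The knockout group held 4 clones with NKX2-1 as their genotype label, named C12, C15, S04 and S36, and the wild-type group held WT10, WT13, WT28 and WT30. Each library is a clone of its own, so the groups differ by NKX2-1 and by whatever else sets clones apart, and the kind of edit and the meaning of the letters C and S are not stated in the sources used here. The comparison asks how transcription differs without NKX2-1, a homeobox transcription factor best known from lung and thyroid.

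Levels are given as CPM, the count of a gene per unit of TMM-scaled library size. For NKX2-1 itself they were 72.0, 11.3, 83.6 and 33.4 CPM in C12, C15, S04 and S36, and ranged over 53.6 to 63.2 CPM in wild-type clones. The knockout clones thus lay on both sides of the wild-type range, with -0.15 as the log2 fold change (SE 0.42, edgeR adjusted p = 0.905). A count per gene cannot reveal a coding edit, and these values therefore do not check the genotype labels. C15 was the shallowest library with 2730285 counts, while the others held 12344549 to 25423215. Its 0 counts allow up to 1.21 CPM, against 0.116 in C12. T-lineage markers summed to 1876 to 2182 CPM in knockout and 1841 to 2282 CPM in wild-type clones, and 10 of 11 were at 1 CPM or more in every clone. The erythroid markers HBB and HBA1 and the markers MS4A1, LYZ, EPCAM, KRT19 and COL1A2 were at 0 in every clone.

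Complex I takes electrons from NADH and complex II from succinate. Complex III hands them through cytochrome c to complex IV, which reduces oxygen, and the protons pumped by complexes I, III and IV drive the rotor of complex V, which makes ATP. Each complex except complex II also holds subunits encoded by mitochondrial DNA, so its assembly draws on both genomes. Promoters of nuclear respiratory chain genes are textbook targets of the transcription factors NRF1, GABP (an ETS factor) and YY1, and T-cell leukaemia lines run both glycolysis and respiration.

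Of the 76 members, 62 had a promoter window in the RefSeq table (GRCh38.p14), 250 bases before to 50 bases after the start of the gene. On either strand, the NRF1 core GCATGCGC was present in 13 of these 62 windows (21.0%) and in 3.27% of all 27305 windows of that length. The ETS motif CCGGAAG was present in 19 (30.6%, against 10.7% of all windows) and the YY1 motif AAGATGG in 16 (25.8%, against 6.06%). The last 3 bases of the ETS motif are the opening 3 bases of the YY1 motif, so both can share bases, but this occurred in 0 of the 62 windows. The 250 bases before the start are shown for ATP5MC1 and ATP5MC2, the paralogues of ATP5MC3, for ATP5ME, which fell in the S-named clones, and for COX5B, which was lower in every knockout clone. Each reads 5′ to 3′ on the strand of the gene, and capitals mark a match to 1 of the 3 motifs on either strand.
ATP5MC1: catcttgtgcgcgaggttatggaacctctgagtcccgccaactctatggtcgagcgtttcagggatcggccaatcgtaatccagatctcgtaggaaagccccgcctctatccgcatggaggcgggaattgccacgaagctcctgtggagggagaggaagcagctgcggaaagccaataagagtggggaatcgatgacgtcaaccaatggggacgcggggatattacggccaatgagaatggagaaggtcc
ATP5MC2: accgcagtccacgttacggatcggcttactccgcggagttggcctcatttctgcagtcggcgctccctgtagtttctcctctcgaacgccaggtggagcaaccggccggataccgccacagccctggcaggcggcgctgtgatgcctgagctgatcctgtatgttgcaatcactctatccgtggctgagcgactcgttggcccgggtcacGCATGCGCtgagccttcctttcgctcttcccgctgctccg
ATP5ME: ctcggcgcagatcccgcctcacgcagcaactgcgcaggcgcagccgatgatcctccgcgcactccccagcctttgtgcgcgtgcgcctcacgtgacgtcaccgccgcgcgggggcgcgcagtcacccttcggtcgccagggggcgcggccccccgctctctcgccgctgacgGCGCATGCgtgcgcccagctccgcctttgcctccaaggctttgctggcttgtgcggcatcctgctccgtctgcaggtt
COX5B: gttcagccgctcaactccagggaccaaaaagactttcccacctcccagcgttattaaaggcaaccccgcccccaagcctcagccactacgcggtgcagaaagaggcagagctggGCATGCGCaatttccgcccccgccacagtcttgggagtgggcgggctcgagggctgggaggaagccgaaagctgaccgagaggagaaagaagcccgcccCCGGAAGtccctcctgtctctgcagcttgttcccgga
These stretches lie at chr17:48892537-48892786 (plus strand), chr12:53676084-53676333 (minus), chr4:674277-674526 (minus) and chr2:97645812-97646061 (plus). None of the 3 motifs was found in the whole window of ATP5MC1. ATP5MC2 held the NRF1 core from 40 bases before its start, and ATP5ME held it on the opposite strand from 78 bases before. The window of COX5B held the NRF1 core from 136 bases before the start and an ETS motif from 37 bases before, and a further ETS motif that begins 5 bases before the start runs past the printed end. ATP5ME also held an ETS and a YY1 motif after its start. A match of letters is a description of the sequence and does not show that a factor binds there.

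In knockout against wild-type clones, most respiratory chain genes were slightly lower, and 1 passed the test. Of the 75 members tested, 60 had a log2 fold change below 0 and 15 above, with a median of -0.21, against 0.020 over all 14243 genes tested. Among all these genes, 6803 were below 0 and 7440 above. Only ATP5MC3, a gene for the proton-carrying subunit c of ATP synthase, passed at an adjusted p under 0.05 (edgeR quasi-likelihood test, adjusted over all genes tested), which is 1 of 75 members, and 15 had an unadjusted p under 0.05, as did 15.5% of all genes tested. DESeq2 also called ATP5F1E, and limma-voom called ATP5MC3 alone, where these tools called 3.66% and 0.660% of all genes. Of all genes tested, 0.316% passed in either direction and 0.176% were lower. Every knockout clone lay below every wild-type clone in 7 members (NDUFA10, UQCRFS1, COX5B, COX6B1, ATP5MC3, ATP5F1E and ATP5PO), and above in 1 (NDUFC2). Of all genes tested, 5.62% were lower in this sense and 4.44% higher. Whether 7 of 75 and 1 of 75 differ from these shares was not tested. In bulk RNA, fewer cells with a transcript and less of it per cell cannot be told apart.

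The clones were not alike. The median log2 difference of the 75 members from the mean of wild type was -0.014, -0.26, -0.36 and -0.48 in C12, C15, S04 and S36, and ran from -0.076 to 0.058 in wild-type clones. C12 thus lay inside the wild-type range, and the other 3 knockout clones lay below it. Members below the wild-type mean numbered 43, 45, 54 and 64 in these 4 clones in turn, and 57 in WT10 but 21 in WT30, so wild-type clones differ in this count as well. Among all 14243 genes tested, 6779, 7515, 7022 and 7095 were below it in C12, C15, S04 and S36, 6943 in WT10 and 7008 in WT30. As a share of all counts in a library, the 76 members took 1.53%, 1.29%, 1.27% and 1.22% in the same clones, against 1.51% to 1.67% in wild-type clones.

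**Figure D1:**
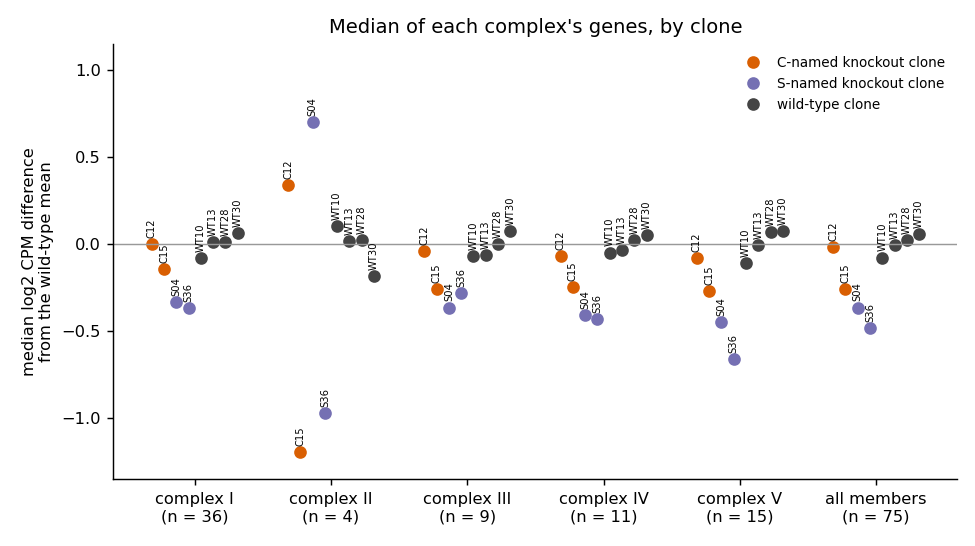
Median log2 CPM difference from the wild-type mean over the tested genes of each complex (x axis) in each of the 8 clones (points, coloured by clone name). C12 lay near 0 for complexes I, III, IV and V, and C15, S04 and S36 lay below every wild-type clone for these complexes. The median of the 4 genes of complex II ran from -1.19 in C15 to 0.70 in S04.

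Among the complexes, the median log2 fold change was -0.13 for complex I, -0.16 for complex III, -0.24 for complex IV and -0.26 for complex V, and 0.034 for complex II. These medians were -0.028, -0.053, -0.11 and -0.21 for complexes I, III, IV and V after a correction for transcript length, and -0.063, -0.046, -0.19 and -0.21 after one for GC content. The corrections also moved the median over all genes tested. It was 0.020 before them, 0.080 after the one for length and 0.078 after the one for GC content. The median of complex II ran from -0.40 with thinned libraries to 0.53 without C15 and S36. In S36 the median difference of complex V genes was -0.66 and that of complex I genes -0.37. In S04 these medians were -0.45 and -0.33. In C12 the medians of complexes I, III, IV and V lay between -0.077 and 0.0014, close to the wild-type clones. The differences between complexes were not tested.

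**Figure D2:**
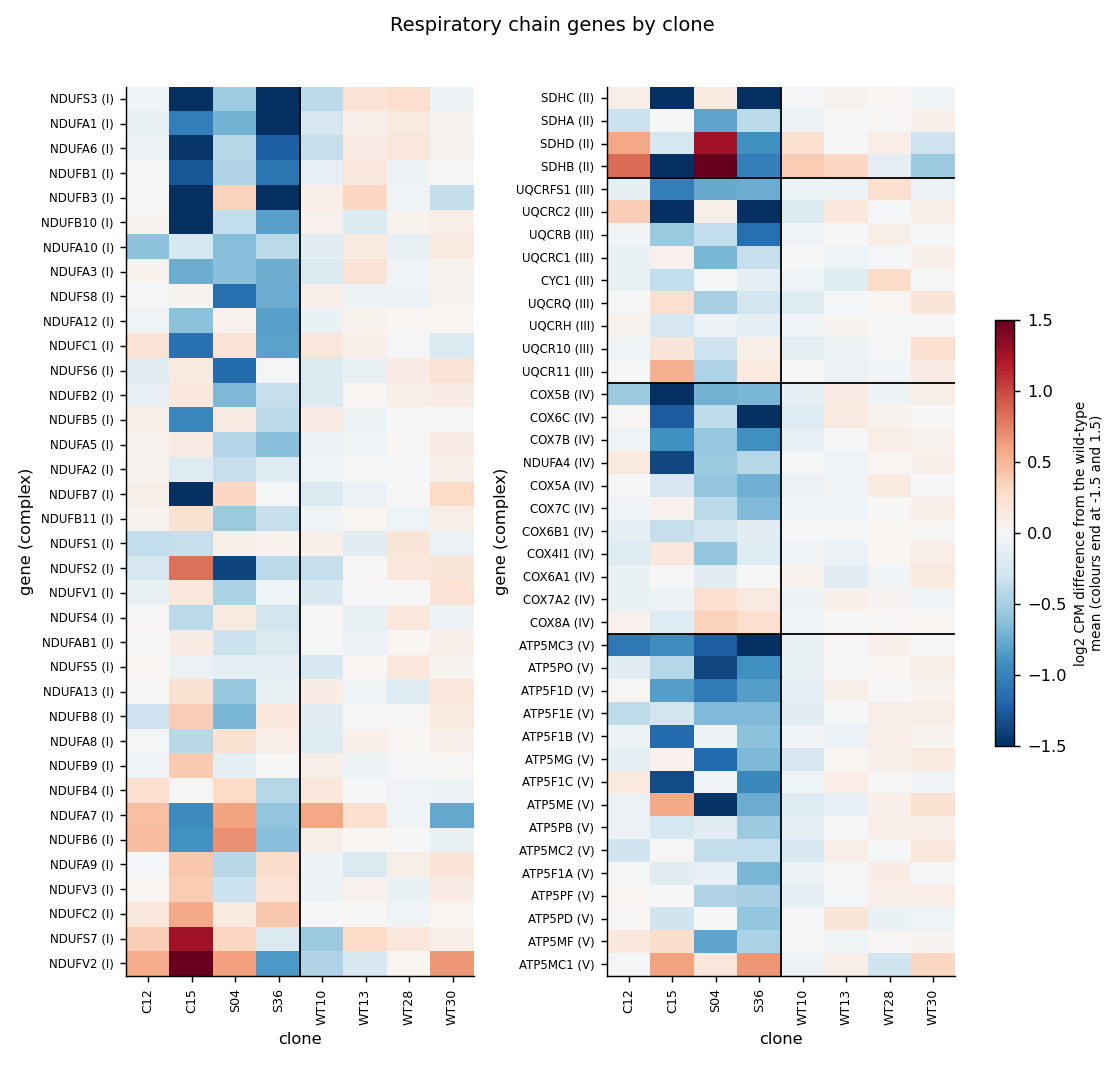
Log2 CPM difference from the wild-type mean (colour) of 75 respiratory chain genes (rows, complex in brackets, ordered within a complex by the knockout fold change) in 8 clones (columns). ATP5MC3, COX5B, NDUFA10 and ATP5F1E are blue in all 4 knockout clones, and many other genes are blue in C15, S04 or S36 but pale in C12.

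Complex V gave the member that passed. Subunit c forms the rotor ring of ATP synthase, and 3 genes, ATP5MC1, ATP5MC2 and ATP5MC3, encode it with the same mature protein. ATP5MC3 lies on chromosome 2 from 175176258 to 175184607 (hg38, minus strand). Its level was 263, 288, 235 and 149 CPM in C12, C15, S04 and S36, against 513, 563, 585 and 557 CPM in the wild-type clones. The highest knockout clone was thus well under the lowest wild-type clone, with -1.25 as the log2 fold change (SE 0.19, edgeR adjusted p = 0.0369, lower in 4 of 4 knockout clones). This call was lost without WT10, WT13, WT28, WT30 or S04 (adjusted p from 0.0754 to 0.157), with libraries thinned to the depth of C15 (0.0563), and after a correction for transcript length (0.0626) or GC content (0.0544). Over all alternatives run, its log2 fold change stayed between -1.54 and -1.03.

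Its paralogues did not pass. ATP5MC1 was at 171, 264, 195 and 275 CPM in C12, C15, S04 and S36, and at 141 to 215 CPM in wild-type clones (log2 fold change 0.36, SE 0.19, edgeR adjusted p = 0.397). ATP5MC2, which had the highest level per kilobase in complex V (1094 CPM per kb in wild type), was at 777, 966, 745 and 741 CPM, against 814 to 1064 CPM (log2 fold change -0.25, SE 0.15, edgeR adjusted p = 0.455). Both overlapped between the groups. ATP5MC3 made up 21.7% of the counts of the 3 genes in C12 (95% exact binomial interval 21.2% to 22.2%), 19.0% in C15 (17.7% to 20.3%), 20.01% in S04 (19.5% to 20.6%) and 12.8% in S36 (12.3% to 13.4%). In wild-type clones its share was 30.3% to 35.2%, so the groups did not overlap in this share either. The 3 genes together summed to 1211, 1518, 1174 and 1165 CPM in C12, C15, S04 and S36, while wild-type clones averaged 1691 ± 151 CPM (SD, n = 4). The intervals cover counting error only.

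**Figure D3:**
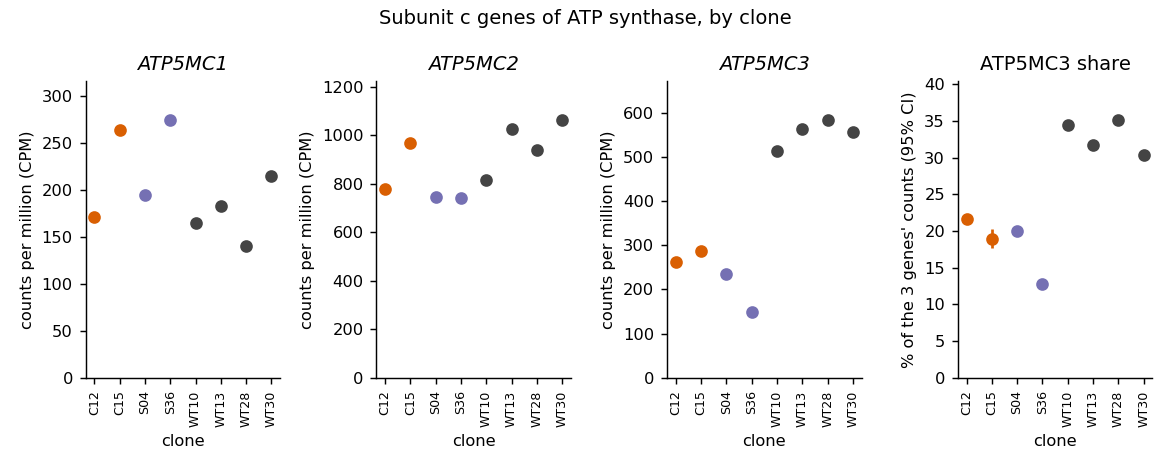
CPM of ATP5MC1, ATP5MC2 and ATP5MC3, and the share of ATP5MC3 in the counts of the 3 genes with its 95% interval, in each clone (points). ATP5MC3 was at 149 to 288 CPM in the knockout clones and at 513 to 585 CPM in the wild-type clones, while the other 2 genes overlapped between the groups.

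No other gene of complex V passed by edgeR in knockout against wild type. ATP5F1E, subunit epsilon of the catalytic head, was at 604, 645, 497 and 497 CPM in C12, C15, S04 and S36, against 707 to 841 CPM in wild-type clones. No knockout clone reached the wild-type range (log2 fold change -0.49, SE 0.15, edgeR adjusted p = 0.165). ATP5PO, the subunit by which the outer stalk grips the head, was at 419, 346, 181 and 246 CPM in the same order, against 433 to 497 CPM (log2 fold change -0.65, SE 0.23, edgeR adjusted p = 0.215). C12 was close to the wild-type range there, and S04 was farthest from it. ATP5F1D, subunit delta of the head, was at 69.5 CPM in C12, inside the wild-type range of 62.3 to 72.4, and at 32.9 to 38.8 in the other 3 knockout clones. ATP5F1B, the catalytic beta subunit, was at 518 and 520 CPM in C12 and S04, 243 in C15 and 356 in S36, against 514 to 583 CPM. Of the 15 genes of complex V, 14 had a log2 fold change below 0, ATP5MC1 being the exception.

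Complex I, the largest of the complexes, had no gene past the threshold by edgeR, DESeq2 or limma-voom, and 6 of its 36 tested genes had an unadjusted p under 0.05, near the 15.5% of all genes. NDUFA10, an accessory subunit on chromosome 2, was at 66.2, 84.4, 65.2 and 76.7 CPM in C12, C15, S04 and S36, against 91.0 to 111 CPM in wild-type clones. It was the only complex I gene with every knockout clone below every wild-type clone (log2 fold change -0.48, SE 0.14, edgeR adjusted p = 0.165). NDUFC2, an accessory subunit of the membrane arm, was the only member with every knockout clone above, at 95.1, 126, 92.9 and 112 CPM against 81.5 to 86.4 CPM (log2 fold change 0.33, SE 0.14, edgeR adjusted p = 0.286).

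In 4 other accessory subunits of complex I, C12 lay inside the wild-type range. NDUFA1 was at 319, 169, 211 and 120 CPM in C12, C15, S04 and S36, against 291 to 379 CPM, and NDUFB1 was at 250, 102, 183 and 118 CPM against 230 to 282 CPM. NDUFA3 was at 55.0 CPM in C12 and 31.9 to 34.4 in the other knockout clones, against 45.9 to 61.1 CPM. NDUFA6 was at 13.9, 5.25, 10.9 and 6.19 CPM in C12, C15, S04 and S36, against 11.4 to 16.5 CPM. In these 4 genes the other 3 knockout clones lay below the wild-type range. NDUFS5, the complex I gene with the highest wild-type level per kilobase of transcript (675 CPM per kb), was at 330 to 373 CPM in knockout and 311 to 408 CPM in wild-type clones. The 7 core subunits, which carry the electrons from NADH to quinone, had a median log2 fold change of -0.12, and the 29 accessory subunits tested one of -0.16.

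Complex II has 4 subunits, all encoded in the nucleus, and none passed by edgeR, DESeq2 or limma-voom. By edgeR 0 of the 4 had an unadjusted p under 0.05, against 15.5% of all genes tested. SDHA, the flavoprotein that oxidises succinate and the complex II gene with the highest level per kilobase (22.8 CPM per kb in wild type), was at 43.7, 54.9, 31.4 and 41.3 CPM in C12, C15, S04 and S36, against 51.7 to 57.7 CPM. C15 lay inside the wild-type range, and the other 3 knockout clones lay below it (log2 fold change -0.36, SE 0.17, edgeR adjusted p = 0.331). SDHB, the iron-sulfur subunit, was at 3.90, 0.404, 6.82 and 0.993 CPM in the same order, against 1.42 to 2.82 CPM. Its value in C15 rests on 1 count and that in S36 on 13. SDHD, a membrane anchor, was at 9.49, 5.25, 15.3 and 3.29 CPM, against 5.06 to 7.45 CPM. For SDHB and SDHD, C12 and S04 were above every wild-type clone and S36 was below. Their log2 fold changes of 0.61 and 0.43 turned to -0.046 and -0.039 without S04.

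In complexes III and IV as well, 0 genes passed by edgeR, DESeq2 or limma-voom. An unadjusted p under 0.05 by edgeR was found for 2 of 9 and 3 of 11 genes, and for 15.5% of all genes tested. UQCRFS1, the Rieske iron-sulfur protein of complex III, was at 75.9, 40.4, 49.4 and 49.7 CPM in C12, C15, S04 and S36, against 78.5 to 98.0 CPM. All knockout clones were below the wild-type range, C12 only just (log2 fold change -0.62, SE 0.19, edgeR adjusted p = 0.176). UQCRB, a ubiquinone-binding subunit, was at 413, 290, 330 and 194 CPM, against 411 to 451 CPM, so only C12 was in the wild-type range. UQCRC1, a core subunit, was at 81.8 CPM in S04 and 104 in S36 but at 123 and 138 in C12 and C15, against 126 to 139 CPM. Cytochrome c1, encoded by CYC1, was at 114 to 145 CPM in knockout and 130 to 178 CPM in wild-type clones, which overlapped. UQCRQ, which had the highest level per kilobase in complex III (637 CPM per kb in wild type), was at 262 to 440 CPM in knockout and 328 to 422 CPM in wild-type clones.

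In complex IV, COX5B, a subunit of the oxidase that faces the matrix, was at 44.7, 13.7, 40.1 and 40.5 CPM in C12, C15, S04 and S36, against 59.7 to 71.2 CPM. All knockout clones were below the wild-type clones and C15, with 34 counts, was farthest (log2 fold change -0.88, SE 0.27, edgeR adjusted p = 0.180). COX7B was at 324, 179, 228 and 180 CPM against 312 to 364 CPM, and COX5A at 195, 163, 130 and 117 CPM against 183 to 213 CPM. COX6C, with the highest level per kilobase of complex IV (1006 CPM per kb in wild type), was at 640, 266, 488 and 216 CPM in C12, C15, S04 and S36, against 552 to 697 CPM. In these 3 genes C12 lay inside the wild-type range and the other knockout clones below it.

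The S-named clones, S04 and S36, carried most of the members that passed when set against the 4 wild-type clones alone. In a fit with C-named, S-named and wild-type clones as 3 groups, 12 of the 75 members were lower in the S-named clones and 0 were higher. Of all genes tested, 9.65% passed in this comparison and 4.96% were lower. The 12 genes were 7 of the 15 in complex V, 3 of the 36 in complex I and 2 of the 11 in complex IV, with 0 of 9 in complex III and 0 of 4 in complex II, where 4 and 1 had an unadjusted p under 0.05, as did 27.0% of all genes tested. DESeq2 called 20 members and limma-voom 19, against 13.5% and 12% of all genes (1929 and 1708 of 14243), and each called UQCRB, UQCRC1 and UQCRFS1 of complex III and SDHA of complex II lower as well. All 3 tested genes of the subunits e, f and g, which join ATP synthases into dimers in the inner membrane, were among them.

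ATP5MC3 had the largest fold change of the 12 (log2 fold change -1.53, SE 0.19, edgeR adjusted p = 0.00467). It was followed by ATP5PO (-1.13, SE 0.17, edgeR adjusted p = 0.00749), ATP5ME for subunit e (-1.07, SE 0.25), NDUFA1 (-1.07, SE 0.29), ATP5F1D (-0.94, SE 0.22) and NDUFS8, an iron-sulfur core subunit (-0.93, SE 0.15). ATP5MG for subunit g (-0.90), ATP5F1E (-0.67), COX5A (-0.65), ATP5MF for subunit f (-0.63), NDUFA5 (-0.53) and COX7C (-0.53) completed the list. ATP5ME was at 126 CPM in S04 and 208 in S36, against 306 to 410 CPM in wild-type clones, but at 329 and 517 CPM in C12 and C15. ATP5MG, the member with the highest CPM, was at 558 and 784 CPM in S04 and S36, against 1048 to 1384 CPM, and at 1129 and 1307 CPM in C12 and C15. NDUFS8 was at 44.0 and 57.8 CPM in S04 and S36, against 91.6 to 104 CPM, and at 95.3 and 99.3 CPM in C12 and C15. For these 3 genes both S-named clones were under every other clone.

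NDUFS8, ATP5MC3 and ATP5PO passed in each fit that left out a wild-type clone and in each of 10 other fits with all clones. The other 9 genes each lost their call without WT13, without WT28 and without WT30. Fits that left out a knockout clone leave 1 clone in a C-named or S-named group, and their calls are not given here. Over the whole list the count was 3 without WT13, without WT28 or without WT30, and 5 without WT10. In these fits 419 of 14578, 430 of 14623, 300 of 14627 and 504 of 14743 genes tested passed. With all clones 1374 of 14243 did.

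**Figure D4:**
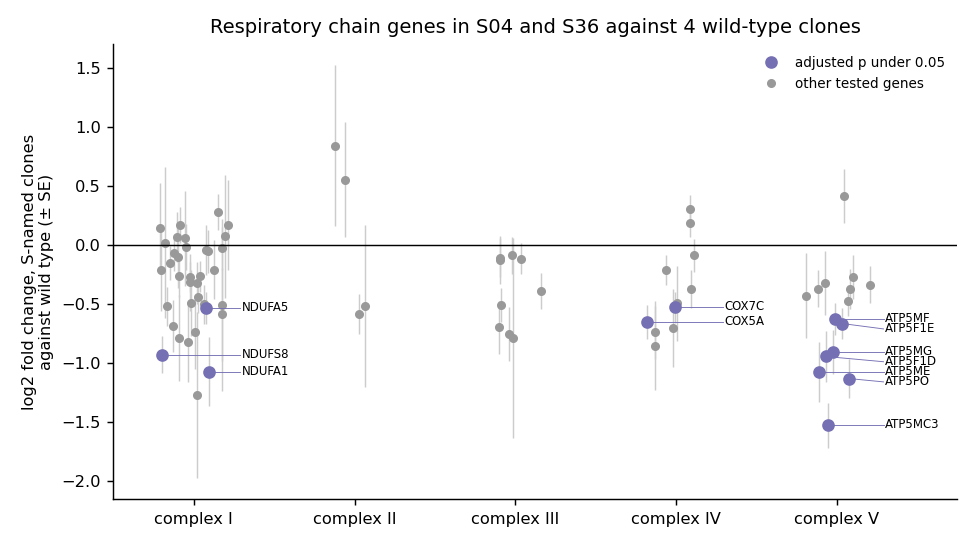
Log2 fold change of S04 and S36 against the 4 wild-type clones (y axis, bars are the standard error) for the 75 tested genes by complex. The 12 genes past the threshold are purple and named, all of them below 0, and 7 of them belong to complex V.

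In the C-named clones, C12 and C15, 0 of 75 members passed against wild type, where 0.0351% of all genes tested passed. For this comparison edgeR gave an unadjusted p under 0.05 for 6 members (7.66% of all genes), DESeq2 called 1 member, ATP5MC3 (0.562% of all genes), and limma-voom 0 (0.0351%). The difference between C-named and S-named clones was tested in the same fit. There edgeR called 0 of 75 members, with 18 at an unadjusted p under 0.05, while 0.358% of all genes tested passed and 17.1% had such an unadjusted p. DESeq2 called 9 members (4.57% of all genes) and limma-voom 2, ATP5MF and NDUFS8 (1.07% of all genes). The smallest adjusted p of edgeR, 0.0596, was shared by NDUFS8 (log2 difference of C-named over S-named clones 0.93, SE 0.17) and ATP5MF (0.84, SE 0.16). Members that passed in S-named and not in C-named clones against wild type were thus not shown by edgeR to differ between both kinds of knockout clone.

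Genes of chromosome 2 were lower as a whole in the knockout clones. The median log2 fold change of its 947 tested genes was -0.31, and 242 of them had every knockout clone below every wild-type clone. The 5 members there, ATP5MC3, COX5B, NDUFA10, NDUFB3 and NDUFS1, had a median of -0.60, and the 70 tested members on other chromosomes a median of -0.20. After subtracting the chromosome's median, the log2 fold change was -0.94 for ATP5MC3, -0.57 for COX5B and -0.18 for NDUFA10. NDUFS1, the largest iron-sulfur subunit of complex I, was at 6.37 to 8.75 CPM in knockout and 7.35 to 9.34 CPM in wild-type clones. It overlapped between the groups, and of the 7 members that did not overlap with knockout lower, 3 lie on this chromosome. Other chromosomes had shifts as well. The median was 0.37 on chromosome 9, which holds NDUFB6 and MRPL41, named below, and -0.19 on chromosome 20, which holds ATP5F1E. Among genes of the further lists named below, BCS1L, SUCLG1, MRPS9 and MRPL30 lie on chromosome 2. The part of a chromosome's shift in each of these values was not tested.

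A few members were far lower in C15 and S36 than in the other clones. In both clones 4 of 75 members (5.33%) were more than 1.5 below the wild-type mean on the log2 scale, as were 271 of all 14243 genes tested (1.90%). This limit was chosen after the values were seen. NDUFB3, an accessory subunit of complex I, was at 9.69 and 8.64 CPM in C15 and S36, yet at 56.1 and 71.7 CPM in C12 and S04, against 44.2 to 70.3 CPM in wild-type clones. SDHC, the other membrane anchor of complex II, was at 2.02 and 9.40 CPM in C15 and S36, at 34.5 and 35.4 in C12 and S04, and at 31.0 to 33.3 in wild-type clones. NDUFS3, a core subunit of complex I, was at 1.21 and 2.22 CPM in C15 and S36, at 15.2 and 10.8 in C12 and S04, and at 11.9 to 18.6 in wild-type clones. In C15 the values of SDHC and NDUFS3 rest on 5 and 3 counts. UQCRC2, the second core subunit of complex III, had 0 counts in C15, which allows up to 1.21 CPM, and was at 0.306 CPM in S36, 5.25 in C12, 4.29 in S04 and 3.46 to 4.51 in wild-type clones. C12 and S04 were at or near the wild-type range for all 4 genes. Without C15 and S36 the log2 fold change of NDUFB3 turned from -0.60 to 0.15 and that of SDHC from -0.58 to 0.11. Without these clones 4 members passed, where 2.13% of 15293 genes tested did, namely ATP5MC3 (-1.16), COX5B (-0.64) and NDUFA10 (-0.64), all lower, and NDUFB6 (0.57), higher. The first 3 lie on chromosome 2. NDUFB6 lies on chromosome 9, where the median log2 fold change with all clones was 0.37.

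**Figure D5:**
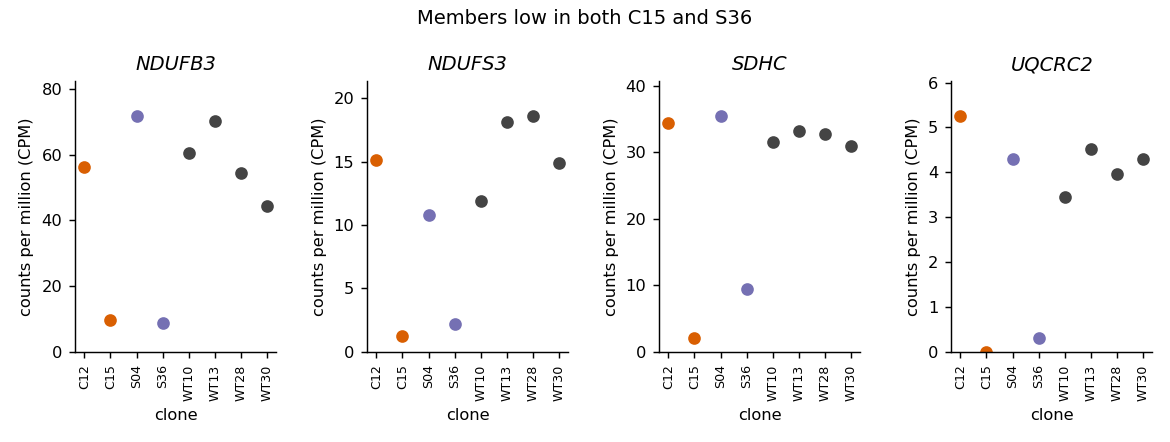
CPM of NDUFB3, NDUFS3, SDHC and UQCRC2 in each clone (points, y axis from 0). C15 and S36 lie far below the other 6 clones in each gene, while C12 and S04 lie at or near the wild-type clones.

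Levels differed widely between members. In wild-type clones 47 of the 76 members were above 100 CPM and 9 were under 10 CPM. Among the latter were SDHB (2.21), NDUFS7 (1.66), NDUFV2 (1.11) and NDUFA7 (1.77), and NDUFA11, with 0 or 1 count per library, could not be tested. These subunits sit beside others of the same complex at over 100 CPM, and GAPDH, which every cell uses, was at 12.8 to 27.1 CPM in wild-type clones, RPL7A at 5.11 to 13.8 and RPS3A at 0.105 to 0.330. In C15 and S36, RPL7A was at 0 and 1.30 CPM. How reads that match several places were counted is not given in the sources used here, so a low value of a member may not be a low level of its mRNA. Processed copies of members, 188 further rows named after them, held 0.226% to 0.591% as many counts as the members, the most in S04. Exons of 43 of the 76 members overlap another gene, over 20% of exon length in 16, among them ATP5ME (61.6%, opposite MYL5), NDUFA1 (44.5%, opposite RNF113A), ATP5PO and ATP5F1E. Use of strand in counting is not given, so counts of such genes are uncertain.

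Members are short transcripts, with a median of 924 bases against 2588 over all genes tested. In the fifth of tested genes with the shortest transcripts, the median log2 fold change was -0.019 over all genes and -0.20 over the 49 members there. The GC content of members (median 48.7%) was close to that of all genes tested (47.8%). A correction for the trend with length lowered the count of members past the threshold in S-named clones from 12 to 6. The count over all genes tested went from 1374 to 1137.

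Genes that work with the members were examined in 9 further lists, and in knockout against wild-type clones 0 genes passed in each of them by edgeR: the 13 mitochondrially encoded subunits, 9 tested subunits and isoforms outside the member list, 19 assembly factors of complex I, 10 of complexes II and III, 21 of complex IV and 5 of complex V, 14 regulators of respiratory chain gene expression, 14 enzymes of the tricarboxylic acid cycle and 74 mitochondrial ribosomal proteins. At an unadjusted p under 0.05 these lists held 1, 1, 1, 1, 1, 0, 3, 3 and 12 genes by edgeR. Of all genes tested, 15.5% had such an unadjusted p. DESeq2 called 5 of the 179 tested genes of the 9 lists, GABPB2 and 4 mitochondrial ribosomal proteins (MRPL30, MRPL41, MRPL50 and MRPS9), and limma-voom 0. These tools called 3.66% and 0.660% of all genes. Their median log2 fold changes lay between -0.12 for assembly factors of complexes II and III and 0.22 for the mitochondrially encoded subunits. MT-CO1, the catalytic subunit of complex IV, was at 1410, 1976, 2032 and 1247 CPM in C12, C15, S04 and S36, against 1070 to 1359 CPM in wild-type clones. MT-ND5 of complex I was at 3326, 7496, 3160 and 3874 CPM, against 2584 to 3586 CPM. All but S36 were above the wild-type range for MT-CO1, and C15 and S36 were above it for MT-ND5 (adjusted p of 0.312 and 0.380 by edgeR). Against wild type, the median log2 fold change of the 13 genes in the S-named clones was -0.20, with 9 of them below 0, and DESeq2 called MT-ND1 lower there, which edgeR did not. In S36 alone their median difference from the wild-type mean was -0.32, and in C15 it was 0.68.

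In the S-named clones 19 of the 179 tested genes of these lists (10.6%) passed by edgeR, close to the 9.65% of all genes tested. ATP5MJ, a small ATP synthase subunit outside the member list, was lower (log2 fold change -0.58, edgeR adjusted p = 0.0498), as were NUBPL, which inserts iron-sulfur clusters into complex I (-0.83, edgeR adjusted p = 0.0204), and SDHAF2, which helps to attach flavin to SDHA (-0.73, edgeR adjusted p = 0.0298). IDH3G, a subunit of isocitrate dehydrogenase, was lower by the same test (-0.53). Among regulators, GABPB2, a partner subunit of the GABP factor, was higher (0.57, edgeR adjusted p = 0.0372) at 49.3 and 42.0 CPM in S04 and S36 against 29.4 to 32.6 CPM in wild-type clones, and so was SP1 (0.60). Of the 74 mitochondrial ribosomal proteins, 9 were lower and 4 higher in the S-named clones, where 4.96% of all genes tested were lower and 4.69% higher. MRPS15 had the largest fall (-1.24, edgeR adjusted p = 0.00389), at 64.1 and 57.5 CPM against 128 to 151 CPM, and MRPL41 was higher (1.00, edgeR adjusted p = 0.0188). 

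The further list genes given next did not pass by edgeR in knockout or in S-named clones against wild type. Their values are those of knockout against wild type. Among assembly factors, BCS1L of complex III had a log2 fold change of -0.48, PET100 of complex IV -0.59 and TMEM70 of complex V -0.38, while FOXRED1 of complex I stood at 0.31. CMC1 of complex IV was at 0.29, FMC1 of complex V at -0.45 and UQCC2 of complex III at -0.25. The 5 assembly factors of complex V had a median of 0.081, with 3 of them above 0. Of the subunits and isoforms outside the member list, UQCRHL was at 0.78 and HIGD2A at -0.27. TFB1M, a methyltransferase of mitochondrial ribosomal RNA, was at -0.61, and the cycle enzymes SUCLG1 and FH were at -0.53 and -0.60. DESeq2 and limma-voom called PET100 and TFB1M lower in the S-named clones.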

How the data were processed

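Total RNA of each clone was sequenced as a standard Illumina library, per the labels' protocols. The authors deposited raw counts per gene symbol for 8 clones, and FastQC, TopHat2, SAMtools and Subread with hg38 are named in the submitters' processing notes. Versions, gene annotation, strand setting and treatment of multiply mapped reads are not stated in the sources used here.

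Members were taken by symbol, and the members and gene lists were chosen with earlier results of these data known. Counts were filtered with filterByExpr (14243 genes), scaled with TMM factors and tested in edgeR 4.0.16 under R 4.3.3 by its quasi-likelihood method, 2-sided. P-values were adjusted over all genes tested by Benjamini-Hochberg, and the threshold was 0.05. Differences from the wild-type mean use log2 CPM with a prior count of 2. The C-named and S-named contrasts come from a fit with 3 groups. DESeq2 1.42.0 and limma-voom (limma 3.58.1) were alternatives, as were other scalings and filters, thinning to 2730285 counts, length or GC trends (values for 96.9% of genes) and leaving out clones. Leaving out C15 and S36 together was chosen after seeing the data. The fit was tested on simulated counts. Positions, lengths and overlaps are those of GENCODE release 29, to which 56983 of 61228 symbols were matched.

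Genes named were NKX2-1, members past the threshold, the first 6 of complexes I and V and 4 of complexes III and IV by p, all of complex II, the subunit c family, members on chromosome 2, the highest per kilobase in each complex, and up to 2 per further list. Members and list genes named for the S-named clones were chosen after their values were seen. The labels name separate clones but give no culture or date, and the p-values therefore rest on the spread among these libraries, which may in part be technical.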

Additional observations from a re-analysis of the deposited data

Results flagged for a closer look

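In 68 groups of 4 clones, 1 group per named gene and genotype, a single clone stood apart by Dixon's criterion in 3, where chance gives about 3.4 (1 in 20). NDUFA3 was at 0.049 on the log2 scale relative to the wild-type mean in C12, apart from the other knockout clones. UQCRFS1 was at 0.24 in WT28, apart from the other wild-type clones. COX5B was at -2.24 in C15, apart from the other knockout clones, on 34 counts.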

How the results depend on the processing

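In knockout against wild-type clones the count of members past the threshold was 1, where 45 of all genes tested passed. The member count was 4 with no low-count filter, 0 after thinning, 0 with the length trend, 0 with the GC trend and 2 with DESeq2. In these fits 581, 4, 35, 40 and 521 of all genes passed. It was 24 with the S-named clones alone and 4 without C15 and S36, against 2211 and 325 of all genes. With each clone left out it was 0 to 6 (0 without WT10, WT13, WT28, WT30 or S04, 6 without C12, 2 without C15). Of all genes, 3 to 5 passed without a wild-type clone, 7 without S04, 456 without C12 and 114 without C15. For S-named clones against wild type the member count was 12, where 1374 of all genes tested passed. It was 24 with no filter, 7 after thinning, 6 with the length trend, 20 with DESeq2 and 19 with limma-voom. In these fits 2266, 626, 1137, 1929 and 1708 of all genes passed. With a wild-type clone left out the member count was 3 to 5, against 300 to 504 of all genes. For C-named clones against wild type the member count was 0, where 5 of all genes passed. It was 2 with no filter and 1 with DESeq2, against 259 and 80 of all genes. With a wild-type clone left out it was 0, against 1 of all genes. For C-named against S-named clones the member count was 0, where 51 of all genes passed. It was 6 with no filter, 2 with a mean CPM of at least 5, 9 with DESeq2 and 2 with limma-voom. In these fits 762, 99, 651 and 153 of all genes passed. With a wild-type clone left out the member count was 0, as was the count over all genes. Fits that left a C-named or S-named group with 1 clone assumed that this clone varied like the other groups. Their counts for these 3 comparisons are not given here. The complex medians were set against the SD of the per-clone medians of the 4 knockout clones. They moved by less than it except with the S-named clones alone, where complex III was at -0.41 and complex IV at -0.51. This SD was 0.17 for complex I and 0.94 for complex II, larger than the sizes of their medians (-0.13 and 0.034). A median of complex I or II could thus reach 0 and still count as unmoved. Signs turned for NDUFS5 (0.052) and UQCRQ (0.043) with the length trend, UQCRQ with the C-named clones alone (0.10), NDUFS1 with the S-named clones alone (0.052), SDHC (0.11) and NDUFB3 (0.15) without C15 and S36, and SDHB (-0.046) and SDHD (-0.039) without S04. With the length trend the median over all genes tested was 0.080. The cause of these turns was not tested. Thinning and fewer clones leave fewer counts or samples, which is part of their construction. No paired analysis was done, since the labels match no knockout clone to a wild-type clone.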
